A study of Mus musculus with 20 samples.

Results

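The auxiliary subunits of the AMPA receptor examined here are 10 of the 35580 mouse genes measured, and comprise *Cacng2*, *Cacng3*, *Cacng4*, *Cacng5*, *Cacng6*, *Cacng7*, *Cacng8*, *Cnih2*, *Cnih3* and *Shisa9*. They were chosen by name as a gene family, with the exception that *Cacng6* was chosen by its low level in miR-324-null samples in an earlier look at these data. The genotype difference of *Cacng6* is therefore a description and carries no test. The samples were 20 RNA-seq libraries of male C57BL/6J mice aged 13.5 months, in 4 groups of 5: wild-type (WT) hippocampus, miR-324-null hippocampus, and WT and miR-324-null neocortex (cerebral cortex in the sample labels). The miR-324-null mice carried a global deletion of *Mir324* made with CRISPR/Cas9. The founders were of mixed C57BL/6 and CBA/ca stock, they were backcrossed onto C57BL/6J, and heterozygotes were intercrossed to give both the WT and the miR-324-null line. The labels give a number of 1 to 5 to the samples of each group and do not say whether equal numbers in both tissues stand for 1 mouse. The comparisons asked how the auxiliary subunits differed between the tissues and between the genotypes.

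AMPA receptors carry most fast excitatory transmission in the brain, and their pore is built from the subunits GluA1 to GluA4. Auxiliary subunits bind the pore-forming complex and set how many receptors reach the synapse and how fast they open, close and desensitise. The type I transmembrane AMPA receptor regulatory proteins (TARPs) are encoded by *Cacng2* (stargazin), *Cacng3*, *Cacng4* and *Cacng8*, and the type II TARPs by *Cacng5* and *Cacng7*. *Cnih2* and *Cnih3* encode cornichons, which aid export of the receptor from the endoplasmic reticulum and slow its deactivation, and *Shisa9* encodes a transmembrane protein that modulates short-term plasticity. *Cacng6* encodes a protein of the same calcium channel gamma subunit family that is not classed as a TARP.

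Both mature arms of the deleted miRNA are shown because a miRNA pairs with 3′UTRs through its seed, bases 2 to 8, which stand in capitals. The RefSeq sequences on build GRCm38.p6 lie on the plus strand at chr11:70012060-70012082 and chr11:70012095-70012114.
miR-324-5p: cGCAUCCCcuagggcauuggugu
miR-324-3p: cCACUGCCccaggugcugcu

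The 7 bases that pair with the seed are GGGATGC for miR-324-5p and GGCAGTG for miR-324-3p, and they were searched on the sense strand of the 3′UTR of the most abundant coding transcript of each gene. A match was found in 3 of the 10 genes, in *Cacng2* and *Cacng5* for miR-324-5p and in *Shisa9* for miR-324-3p. Each window is printed below with the match in capitals. The *Cacng2* window holds a match on the minus strand at chr15:77994422-77994428 of GRCm38, at base 721 of a 3′UTR of 3401 bases. The *Cacng5* window holds a match on the minus strand at chr11:107877102-107877108, at base 244 of 2747, and the *Shisa9* window holds a match on the plus strand at chr16:12268480-12268486, at base 677 of 3099.
Cacng2 site: gctgggccctGGGATGCtggagaagtt
Cacng5 site: acgggctccaGGGATGCcagcagcact
Shisa9 site: ccatgatgttGGCAGTGataggttttt

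Matches of this kind were found in 7.97% (miR-324-5p) and 14.6% (miR-324-3p) of the 3′UTRs of 14450 genes tested. Among genes with a 3′UTR of 0.8 to 1.2 times the length, 16.6% held a miR-324-5p match in the case of *Cacng2* and 13.6% in the case of *Cacng5*, while 27.7% held a miR-324-3p match in the case of *Shisa9*. The 3′UTR of *Cacng6* held neither sequence. That of *Cacng8* held neither as well, but it was only 43 bases long. Among genes of like length, 0.87% held a miR-324-5p match and 0% a miR-324-3p match, so this absence says little. A match describes letters only, and whether the miRNA binds there was not tested.

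For each sample the deposited files give an estimated count and a TPM value for every annotated transcript. A TPM value is a level scaled to transcript length and to the sample's total, and is used here to compare genes. Estimated counts, summed per gene, were scaled to the sample's total with TMM factors (CPM), and are used here to compare groups. Depth, as the total of the estimated counts, ran from 12752439 to 19617765 over the samples. *Mir324* itself was not measured by these libraries, and the genotype labels were instead looked at through the 17 genes that differed between genotypes in the hippocampus, of which 13 did not overlap between the genotypes in the neocortex and differed there in the same direction, against 2.3% of all genes without overlap in the neocortex. All 8 hippocampus markers and 6 of 8 neocortex markers separated the tissues in every sample. Summed choroid plexus markers (Ttr, Kl, Folr1 and Clic6) reached 4496 CPM in WT hippocampus sample 3, 3866 in null hippocampus sample 5 and 798 in null neocortex sample 2, and lay between 14.9 and 138 in the 17 other samples. Summed striatum markers lay between 121 and 331 CPM in WT neocortex and between 206 and 509 in null neocortex. In WT hippocampus they lay between 73.8 and 105 CPM, and in null hippocampus between 60.7 and 78.8. The sum thus did not overlap between the tissues, and a tissue fit with it as a covariate cannot separate it from the tissue. In null neocortex samples 1 to 4 the neocortex markers summed to 662 to 784 CPM, against 847 to 976 in the WT samples and null sample 5. The part of these differences in the results was not tested unless a value without those libraries is given. In tissue samples, fewer cells of a type and less RNA per cell cannot be told apart.

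*Cnih2* was by far the most abundant of the 10 genes in both tissues, and *Cacng5* and *Cacng6* were the least abundant. In WT hippocampus the level of *Cnih2* was 532 ± 35.6 TPM (SD, n = 5), followed by *Cacng7* with 56.5 ± 4.91, *Cnih3* with 48.5 ± 3.94, *Cacng3* with 46 ± 5.48 and *Cacng8* with 39.8 ± 4.46. The ranges of neighbours in this order overlapped from *Cacng7* down to *Cacng8*. *Shisa9* with 26.5 ± 3.1 TPM, *Cacng2* with 19.97 ± 1.65, *Cacng4* with 13.8 ± 0.868, *Cacng5* with 5.26 ± 0.749 and *Cacng6* with 2.05 ± 0.685 followed without overlap.

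In WT neocortex the order was different below *Cnih2*, which stood at 182 ± 10.9 TPM. *Cacng3* with 83.7 ± 5.24 TPM and *Cacng7* with 80.7 ± 3.22 overlapped in the next places, and were followed without overlap by *Cnih3* with 47.7 ± 2.09, *Cacng2* with 32 ± 2.59, *Shisa9* with 24.4 ± 2.67, *Cacng8* with 19.2 ± 0.586 and *Cacng4* with 14.4 ± 2.0. *Cacng5* with 2.81 ± 0.287 TPM and *Cacng6* with 1.79 ± 0.787 came last and overlapped. *Cacng8* thus held the fifth place in the hippocampus and the seventh in the neocortex, while *Cacng3* moved from the fourth to the second.

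The miR-324-null samples kept *Cnih2* in the first place, at 516 ± 47.3 TPM (hippocampus) and 200.4 ± 14.4 TPM (neocortex), and *Cacng6* in the last, at 0.568 ± 0.165 and 0.473 ± 0.127. Of the places between, null hippocampus repeated the WT order of means, and null neocortex differed from WT in having *Cacng7* before *Cacng3* and *Shisa9* before *Cacng2*, pairs whose ranges overlapped in the null samples.

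The 10 genes summed to 790.4 ± 31.9 TPM in WT hippocampus and 489 ± 13.9 in WT neocortex. *Cnih2* alone made up 65.5 to 70.5% of this sum in WT hippocampus and 63.4 to 71.7% in null hippocampus, against 35.3 to 39.1% and 36.5 to 43.1% in the neocortex. The type I TARPs made up 15.1 ± 1.0% of the sum in WT hippocampus and 30.5 ± 1.35% in WT neocortex, and the type II TARPs 7.82 ± 0.683% and 17.1 ± 0.881%. The ranges of these shares did not overlap between the tissues.

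**Figure D1:**
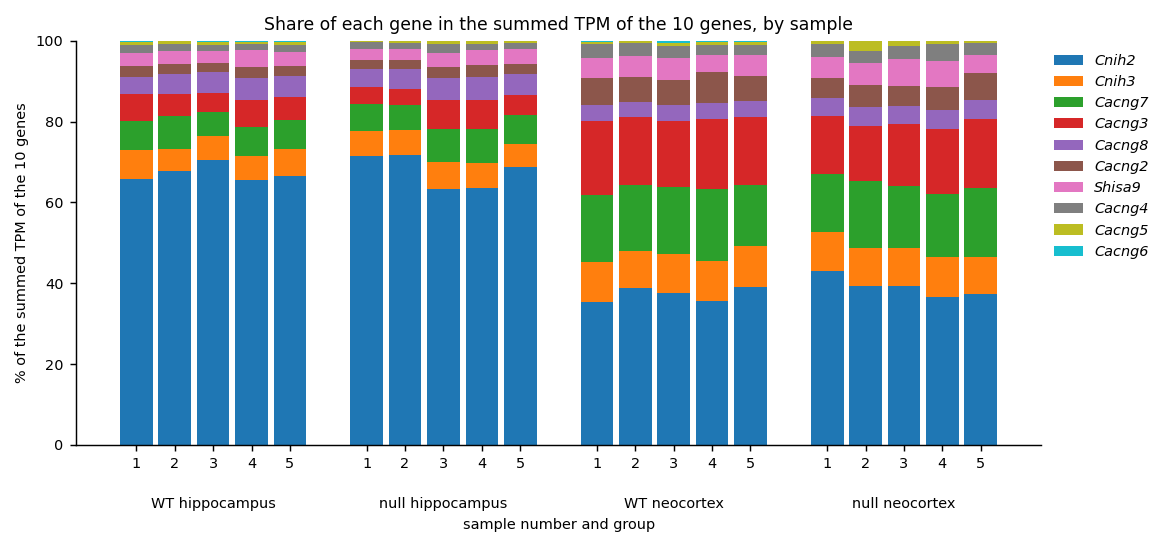
Share of each gene in the summed TPM of the 10 genes (y axis, %), with 1 bar for each of the 20 samples grouped by tissue and genotype. *Cnih2* fills 63.4 to 71.7% of the bars of null hippocampus, which span the WT bars, and 35.3 to 43.1% of those of the neocortex.

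Within the type I TARPs, *Cacng8* made up 33.3 ± 3.53% of the summed TPM in WT hippocampus and 12.9 ± 0.705% in WT neocortex. *Cacng3* made up 38.4 ± 3.16% and 56 ± 0.916%, so it was the most abundant type I TARP in the neocortex, while in the hippocampus its range overlapped that of *Cacng8*. In null samples *Cacng8* made up 35 ± 2.88% in the hippocampus and 15.9 ± 0.892% in the neocortex.

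Of the 10 genes, *Cnih2*, *Cacng8* and *Cacng5* were higher in WT hippocampus than in WT neocortex, and *Cacng2*, *Cacng3* and *Cacng7* were lower. Of all 15391 genes tested in this comparison, 16.6% were higher and 16.9% lower at an adjusted p of at most 0.05 (edgeR's quasi-likelihood test, p adjusted by Benjamini-Hochberg over the whole table). All 10 genes passed the filter on low counts in this fit, *Cacng6* through its WT samples. In null samples *Cnih2* and *Cacng8* were higher in the hippocampus and *Cacng2*, *Cacng3*, *Cacng4* and *Cacng7* lower, against 16.1% higher and 16.4% lower of all genes. The median log2 difference of the 9 genes other than *Cacng6* was 0.07 in WT and -0.33 in null samples, beside medians of -0.00055 and -0.00095 over all genes.

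*Cnih2* had the largest tissue difference of the 10 genes. Its level was 350.3, 354, 380.4, 325 and 328 CPM in WT hippocampus samples 1 to 5 and 111, 129.8, 111, 105 and 129.6 CPM in WT neocortex. The null samples had 373, 382, 298, 288 and 347 CPM in the hippocampus and 146, 124, 123, 114 and 117 CPM in the neocortex. Every hippocampus sample lay above every neocortex sample in both genotypes. The difference was 1.56 ± 0.09 on the log2 scale (SE) in WT, or 2.96-fold (edgeR adjusted p = 2.3e-11), and 1.44 ± 0.09 in null samples, or 2.7-fold (edgeR adjusted p = 1.2e-10). The gene shares its locus on chromosome 19 with *Yif1a* on the opposite strand, which averaged 9.66 CPM.

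Its paralogue *Cnih3* did not pass the test between the tissues. The level of *Cnih3* lay between 64.0 and 79.0 CPM in WT hippocampus and between 65.9 and 70.8 CPM in WT neocortex, and the groups overlapped in both genotypes. The tissue difference was 0.04 in WT with a 95% interval of -0.08 to 0.15, and -0.03 in null samples with an interval of -0.15 to 0.08 (log2).

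Among the type I TARPs, *Cacng8* was higher in the hippocampus. Its level was 31.8, 35.1, 38.5, 38.7 and 34.1 CPM in WT hippocampus and 17.3, 17.7, 15.8, 16.9 and 17.4 CPM in WT neocortex. Null samples had 29.8, 36.3, 37.9, 36.3 and 36.8 CPM in the hippocampus and 20.7, 20.6, 19, 20.6 and 20.1 CPM in the neocortex. The tissues did not overlap in either genotype. The log2 difference was 1.07 ± 0.07 in WT, or 2.09-fold (edgeR adjusted p = 1.8e-10), and 0.81 ± 0.07 in null samples, or 1.75-fold (edgeR adjusted p = 8.6e-09).

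*Cacng2* and *Cacng3*, which encode stargazin and its close relative, went the other way. *Cacng2* had 70.8, 70.4, 58.7, 69.9 and 63.8 CPM in WT hippocampus and 109, 105, 92.9, 114 and 105 CPM in WT neocortex. In null samples it had 59.2, 59.4, 65.1, 70.9 and 65.8 CPM in the hippocampus and 84.8, 86.6, 78, 91.7 and 108 CPM in the neocortex. All hippocampus samples lay below all neocortex samples, with log2 differences of -0.66 ± 0.08 in WT (edgeR adjusted p = 1.2e-06) and -0.49 ± 0.08 in null samples (edgeR adjusted p = 6.0e-05).

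*Cacng3* had 81.6, 68.8, 62.8, 69.9 and 70.4 CPM in WT hippocampus and 141, 139.9, 116, 123 and 133 CPM in WT neocortex. Null samples had 52, 51.6, 80.1, 80.1 and 60.6 CPM in the hippocampus and 119, 102, 117, 117 and 125 CPM in the neocortex. The tissues did not overlap, although null hippocampus samples 3 and 4 stood well above the other null hippocampus samples. The log2 difference was -0.89 ± 0.11 in WT (edgeR adjusted p = 1.8e-06) and -0.84 ± 0.11 in null samples (edgeR adjusted p = 4.4e-06). With the striatum marker sum as a covariate the null value was -0.77 and the adjusted p 0.051 (edgeR).

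*Cacng4* differed between the tissues in null samples and did not pass the test in WT. Its level was 32.4, 29, 29.2, 25.5 and 27 CPM in WT hippocampus and 25.7, 32.6, 27, 24 and 27.7 CPM in WT neocortex. In null samples it was 27.4, 25.4, 24.1, 23.6 and 24.3 CPM in hippocampus and 33.7, 30.6, 33.6, 35.7 and 23.3 CPM in the neocortex. The null groups overlapped because neocortex sample 5 lay below all 5 hippocampus samples, whereas the 4 other neocortex samples lay above them. The log2 difference was 0.07 ± 0.10 in WT (edgeR adjusted p = 0.67) and -0.33 ± 0.10 in null samples (edgeR adjusted p = 0.013). With the striatum marker sum as a covariate the null value was 0.17 (edgeR adjusted p = 0.65). That sum itself separates the tissues, so this fit cannot show what the call depended on. Over all genes the fit called 500 higher and 638 lower between null tissues, in place of 2475 and 2526.

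Of the type II TARPs, *Cacng7* was lower in the hippocampus of both genotypes. Its level was 73.9, 78.4, 62.3, 65.4 and 66.4 CPM in WT hippocampus and 97, 105, 92.7, 100.5 and 96.8 CPM in WT neocortex, and lay between 62.6 and 74.4 CPM in null hippocampus and between 90.5 and 101.1 CPM in null neocortex. The tissues did not overlap. The log2 difference was -0.51 ± 0.06 in WT (edgeR adjusted p = 1.0e-06) and -0.46 ± 0.06 in null samples (edgeR adjusted p = 4.0e-06).

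*Cacng5*, the other type II TARP, was higher in WT hippocampus. Its level was 12.2, 11.8, 11.8, 8.5 and 13.5 CPM in WT hippocampus and 5.17, 6.37, 6.58, 5.58 and 6.79 CPM in WT neocortex. These groups did not overlap, and the log2 difference was 0.92 ± 0.29 (edgeR adjusted p = 0.018). With the striatum marker sum as a covariate the difference was 0.86 and the adjusted p 0.12 (edgeR). In null samples *Cacng5* had 6.56, 8.11, 11.6, 9.84 and 7.28 CPM in the hippocampus and 9.08, 25.7, 12.3, 8.63 and 5.48 CPM in the neocortex. The null groups overlapped and neocortex sample 2, which was also the null neocortex sample with the highest choroid plexus sum, stood far above the rest. That sample also had the highest oligodendrocyte sum (7337 CPM) and the lowest neocortex sum (662 CPM) of its group. WT hippocampus sample 3 and null hippocampus sample 5, with higher choroid plexus sums, had 11.8 and 7.28 CPM of *Cacng5*. The part of these sums in its level was not tested. The null tissue difference was -0.50 ± 0.28 (edgeR adjusted p = 0.19), which was 0.04 (adjusted p = 0.90) without the 3 libraries of high choroid plexus sum and -0.68 (adjusted p = 0.044) without null neocortex sample 5.

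*Shisa9* did not pass the test between the tissues in either genotype, and *Cacng6* did not pass it in WT. *Shisa9* lay between 54.2 and 64.5 CPM in WT hippocampus and between 44.8 and 59.8 CPM in WT neocortex, with a log2 difference of 0.10 and a 95% interval of -0.08 to 0.29. In null samples its difference was -0.13, with an interval of -0.32 to 0.05. The tissue difference of *Cacng6* was 0.16 in WT with an interval of -0.54 to 0.86, so its low counts leave a wide range of values possible. Its null value of 0.40 (log2) is a description, since the gene was chosen for its low level there and does not pass the filter on low counts in the null samples alone.

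**Figure D2:**
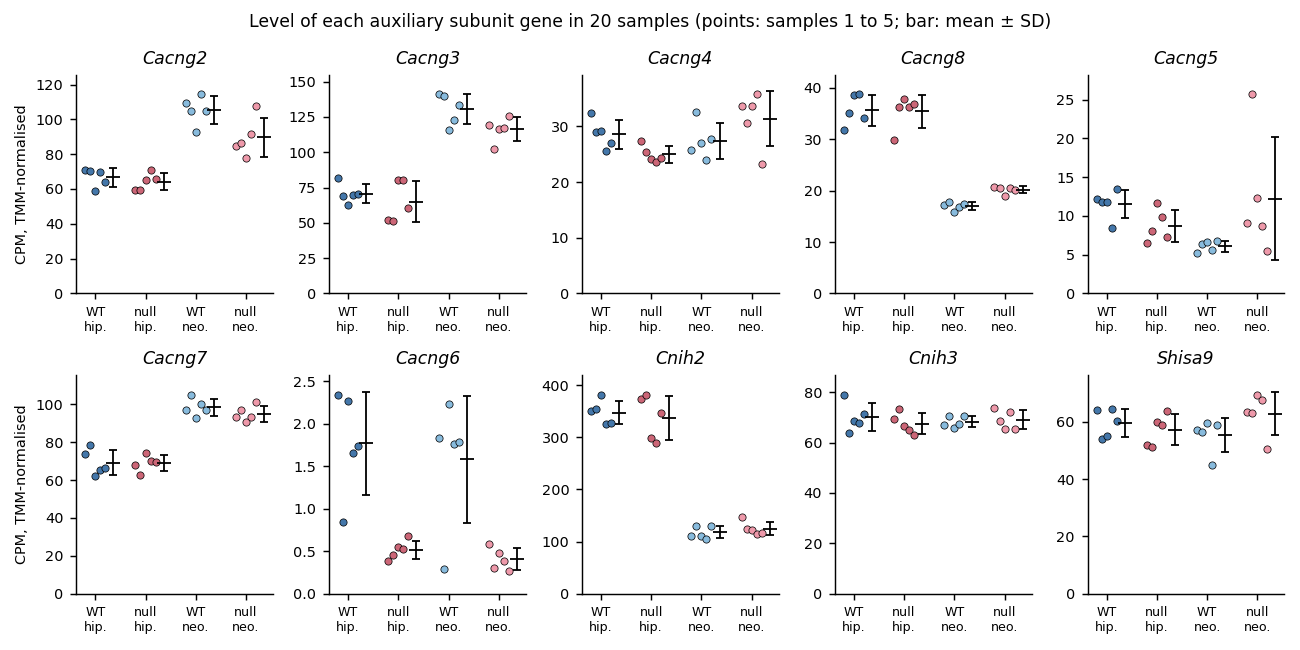
Level of each gene in CPM (y axis, linear from 0) in the 5 samples of each group, with the mean and SD beside the points. *Cnih2* and *Cacng8* lie higher in the hippocampus without overlap and *Cacng2*, *Cacng3* and *Cacng7* lower, *Cacng5* has 1 null neocortex sample at 25.7 CPM, and *Cacng6* has WT samples numbered 2 at 0.839 and 0.289 CPM.

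**Figure D3:**
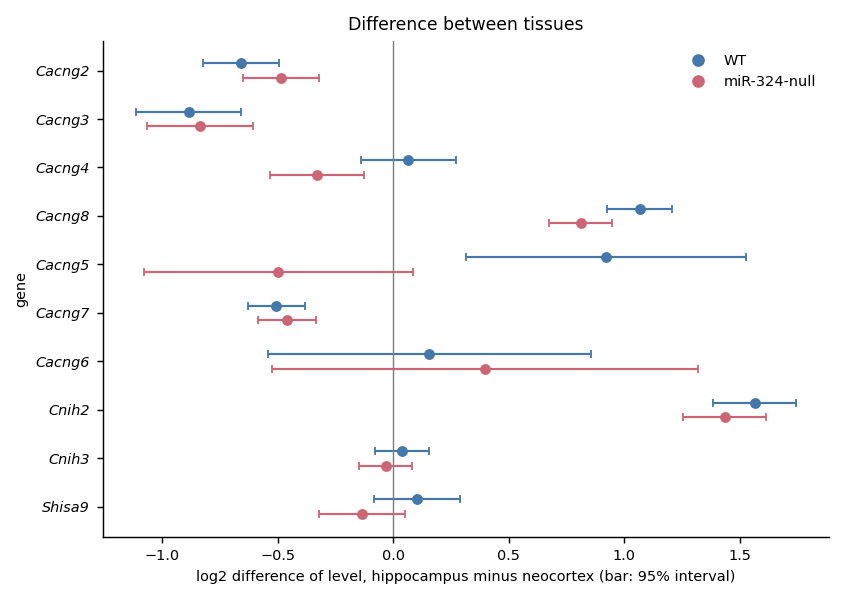
Tissue difference of each gene (x axis, log2, hippocampus minus neocortex) in each genotype, with 95% intervals, where the null value of *Cacng6* is a description. The values run from -0.89 for *Cacng3* to 1.56 for *Cnih2* in WT, and the intervals of *Cacng5* run from 0.32 to 1.53 in WT and from -1.08 to 0.08 in null samples.

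The other genes listed with the AMPA receptor included calls in both directions between the tissues. Of the pore subunits, *Gria1* and *Gria2* were higher in the hippocampus and *Gria3* and *Gria4* lower, in both genotypes alike, with log2 differences in WT of 1.65, 0.19, -0.44 and -0.85. The median of these 4 was -0.13 in WT and -0.09 in null samples. A further list of 28 genes held relatives of the members (such as *Cacng1*, *Cnih1* and *Cnih4*) beside interaction partners, assembly factors and scaffolds of the receptor. Of these 28 genes, 27 passed the filter. In WT hippocampus 9 were higher and 9 lower, against 16.6% and 16.9% of all genes. In null hippocampus 11 were higher and 8 lower, against 16.1% and 16.4%. Their median log2 difference was 0.12 in both genotypes.

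The largest increases among these 28 genes belonged to *Shisa6*, an auxiliary subunit related to *Shisa9*, with 3.63 in WT and 2.90 in null samples, and to *Prrt1* in WT with 0.74 and *Nptx1* in null samples with 0.85 (log2). The largest decreases in WT belonged to *Olfm2* with -1.54 and to *Nptx2*, a secreted pentraxin that clusters AMPA receptors, with -1.44. In null samples they belonged to *Olfm3* with -1.32 and *Olfm2* with -1.26. All of these had an edgeR adjusted p of at most 6.0e-06.

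Between genotypes, none of the 9 genes other than *Cacng6* passed the test in either tissue. Of all genes, 0.115% passed in the hippocampus (17 of 14796) and 0.315% in the neocortex (47 of 14930). At an unadjusted p under 0.05, 2 of the 9 genes (*Cacng4* and *Cacng5*) were found in the hippocampus and 4 (*Cacng2*, *Cacng3*, *Cacng5* and *Cacng8*) in the neocortex, against 11.1% and 12.2% of all genes. DESeq2 called 0 of the 9 genes in both tissues. The median log2 difference of the 9 genes, null minus WT, was -0.06 for the hippocampus and 0.09 for the neocortex, beside medians over all genes of 0.0012 and 0.0046.

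In the hippocampus the 9 log2 differences ran from -0.41 for *Cacng5* to -0.0059 for *Cacng7*, and the groups of all 9 genes overlapped, while those of 2.55% of all genes tested did not. The 95% intervals of *Cacng2*, *Cacng7*, *Cacng8*, *Cnih2*, *Cnih3* and *Shisa9* had ends from -0.22 to 0.16, and that of *Cacng3*, whose difference was -0.12, ran from -0.40 to 0.16. *Cacng4* had a difference of -0.20 ± 0.07 (edgeR adjusted p = 0.36). *Cacng5*, whose values stand above, had a difference of -0.41 ± 0.16 (edgeR adjusted p = 0.38).

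In the neocortex *Cacng8* was the 1 gene of the 9 whose genotypes did not overlap, as was the case for 2.3% of all genes tested. Its WT samples lay between 15.8 and 17.7 CPM and its null samples between 19.0 and 20.7. The log2 difference was 0.25 ± 0.05, or 1.19-fold (edgeR adjusted p = 0.088). Summed hippocampus markers lay between 137 and 146 CPM in WT neocortex, between 179 and 226 CPM in null neocortex samples 1 to 4 and at 127 CPM in null sample 5, and the part of this difference in the level of *Cacng8* was not tested.

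*Cacng5* had the largest difference of the 9 genes in the neocortex, 1.02 ± 0.33 (edgeR adjusted p = 0.25), and its null samples ran from 5.48 to 25.7 CPM against 5.17 to 6.79 in WT. Without null neocortex sample 2 the difference was 0.55 (adjusted p = 0.33). *Cacng2* had -0.22 ± 0.08 (edgeR adjusted p = 0.28) and *Cacng3* had -0.16 ± 0.06 (edgeR adjusted p = 0.33). Without null neocortex sample 5, which had the highest neocortex marker sum of its group, 3 genes passed the edgeR test, *Cacng2* with -0.29 (adjusted p = 0.025), *Cacng5* with 1.21 (adjusted p = 0.036) and *Cacng8* with 0.26 (adjusted p = 0.031). Calls rose over all genes in that fit, to 306 higher and 260 lower of 15071. With all samples they were 24 and 23 of 14930.

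*Cacng4*, *Cacng7*, *Cnih2*, *Cnih3* and *Shisa9* had neocortex differences of 0.20, -0.04, 0.09, 0.02 and 0.19 (log2), each with overlapping groups. Of the 3 genes with a seed match, *Cacng5* was lower in the null hippocampus by value and higher in the null neocortex, *Cacng2* was lower by value in both tissues, and *Shisa9* was -0.06 and 0.19, and none of these 6 differences passed the test. None of the 4 pore subunits and none of the 27 tested genes of the further list passed the edgeR test in either tissue. At an unadjusted p under 0.05 there were 0 pore subunits and 0 further genes in the hippocampus, and 1 and 8 in the neocortex. The shares of all genes were 11.1% in the hippocampus and 12.2% in the neocortex. The paper, which used DESeq2, does list *Gria1* as higher in null hippocampus. Its edgeR value there was 0.08 (log2, edgeR adjusted p = 0.73).

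**Figure D4:**
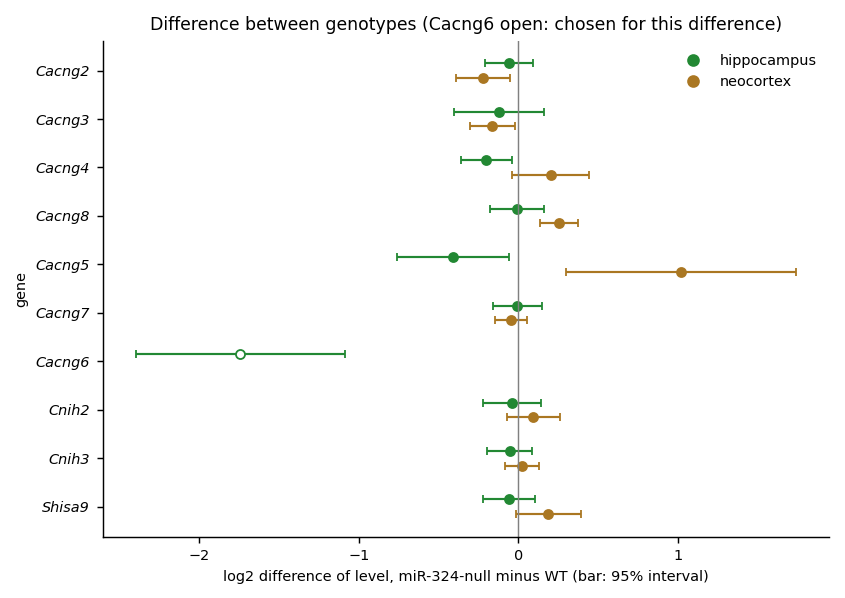
Genotype difference of each gene (x axis, log2, miR-324-null minus WT) in each tissue, with 95% intervals. The open point is *Cacng6* in the hippocampus at -1.74, which was chosen for this difference and is shown with no test, and the other genes run from -0.41 to 1.02, both values of *Cacng5*.

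The genotype difference did not pass the test for a change between tissues in any of the 9 genes, against 0.0195% of all genes (3 of 15391) in the same fit. Unadjusted p values under 0.05 were found for 3 of them, *Cacng5* with -1.42 (edgeR adjusted p = 0.63), *Cacng4* with -0.40 (edgeR adjusted p = 0.84) and *Cacng8* with -0.25 (edgeR adjusted p = 0.84), and DESeq2 called 0. The share of all genes with an unadjusted p under 0.05 was 5.57%. A tissue call of *Cacng4* and of *Cacng5* in 1 genotype alone is therefore not shown to differ between genotypes.

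*Cacng6* was measured from few reads. Its estimated counts were 35.5, 13.5, 35, 21 and 23 in WT hippocampus samples 1 to 5 and 4.5, 6, 8.5, 7 and 10 in null hippocampus. The corresponding levels were 2.34, 0.839, 2.27, 1.65 and 1.74 CPM and 0.39, 0.459, 0.554, 0.522 and 0.674 CPM. WT sample 2 stood nearest to the null samples, and the groups did not overlap. The log2 difference, null minus WT, was -1.74 ± 0.30, or 3.34-fold lower, and is a description, since the gene was chosen for it.

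In the neocortex the estimated counts of *Cacng6* were 27, 4.5, 34.5, 24.5 and 26 in WT and 8.5, 6.5, 8, 7 and 5.5 in null samples, and the levels were 1.84, 0.289, 2.24, 1.77 and 1.78 CPM and 0.586, 0.303, 0.475, 0.385 and 0.271 CPM. The 4 other WT samples lay above every null sample, but WT sample 2 lay below the median of the null samples, so the groups overlapped. *Cacng6* did not pass the filter on low counts in this fit, and in the hippocampus it passed through its WT samples. The paper, with DESeq2 on these same data, lists *Cacng6* as differentially expressed in both tissues, lower in null samples. WT neocortex sample 2 was also the sample with the highest striatum marker sum of its group, at 331 CPM, while null neocortex samples had sums of up to 509 CPM.

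*Cacng6* lies on chromosome 7 at 3424195 to 3435667 of GRCm38 (plus strand), next to *Cacng8* at 3390683 to 3415648 and *Cacng7* at 3332955 to 3368221, which face the same way. *Cacng8* and *Cacng7* had hippocampus genotype differences of -0.0083 and -0.0059, and WT sample 2 was not the lowest WT sample for either gene in either tissue. *Cacng4* and *Cacng5* lie on chromosome 11, as does *Mir324*, at distances of 37.7 and 37.9 Mb from it. *Cacng3* lies elsewhere on chromosome 7, at 122670492 to 122769393. The other genes lie at chr11:107732357-107794557 (*Cacng4*), chr11:107874605-107915055 (*Cacng5*), chr15:77991748-78120028 (*Cacng2*), chr19:5092868-5098521 (*Cnih2*), chr1:181352628-181460641 (*Cnih3*) and chr16:11984113-12270902 (*Shisa9*).

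The genes most like *Cacng6* across the 20 samples, by Spearman's rho of log2 CPM among 15390 other genes, were *Exoc3l2* (rho 0.845), *Eif3s6-ps3* (0.828) and *6030458C11Rik* (0.824). The samples share tissue and genotype, so these values are a description. *Exoc3l2* lies 16.0 Mb from *Cacng6* on chromosome 7 and had a mean of 1.58 CPM in WT hippocampus, 0.447 in null hippocampus, 1.53 in WT neocortex and 0.307 in null neocortex. *Eif3s6-ps3*, a pseudogene on chromosome 17, had means of 0.840 and 0.601 CPM in WT hippocampus and neocortex and was at 0 in all 10 null samples. *6030458C11Rik* on chromosome 15 had means of 45.5 and 44.4 CPM in WT and 39.7 and 38.1 in null samples.

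WT samples numbered 2 differed from the other WT samples of both tissues at 3 genes of chromosome 7. For *Cacng6* they had 0.839 and 0.289 CPM, against 1.65 to 2.34 in the 8 other WT samples and 0.271 to 0.674 in the 10 null samples. *Exoc3l2* had 2.34, 0.323, 2.4, 1.1 and 1.74 CPM in WT hippocampus samples 1 to 5 and 1.56, 0.362, 2.24, 1.77 and 1.72 in WT neocortex, against 0.119 to 0.606 in the null samples. *Rdh13*, a retinol dehydrogenase gene 0.989 Mb from *Cacng6* that was named after its values were seen, had 30.4, 19.1, 29.3, 31.1 and 35.8 CPM in WT hippocampus and 31.3, 21.3, 30.8, 35.4 and 28.2 in WT neocortex, against 16.4 to 22.3 in the null samples. In all 3 genes and both tissues, WT sample 2 was the lowest WT sample and lay within the range of the 10 null samples or, for *Cacng6* in the hippocampus, between the null and the other WT samples. Null minus WT, *Rdh13* differed by -0.56 ± 0.14 between hippocampus genotypes and by -0.64 ± 0.11 between neocortex genotypes (log2). These values of *Rdh13* are descriptions and carry no test, because the gene was picked with its values known. The pattern at WT samples 2 was looked for after the values of *Cacng6* were seen. *Exoc3l2* was chosen by its likeness to *Cacng6* over these same samples, so its agreement with *Cacng6* follows from that choice. The 3 genes are thus not independent observations, and what sets these samples apart was not tested. Without WT hippocampus sample 2 the hippocampus genotype difference of *Cacng6* was -1.92 (log2, a description), and without WT neocortex sample 2 its WT tissue difference was -0.10 (adjusted p = 0.82).

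**Figure D5:**
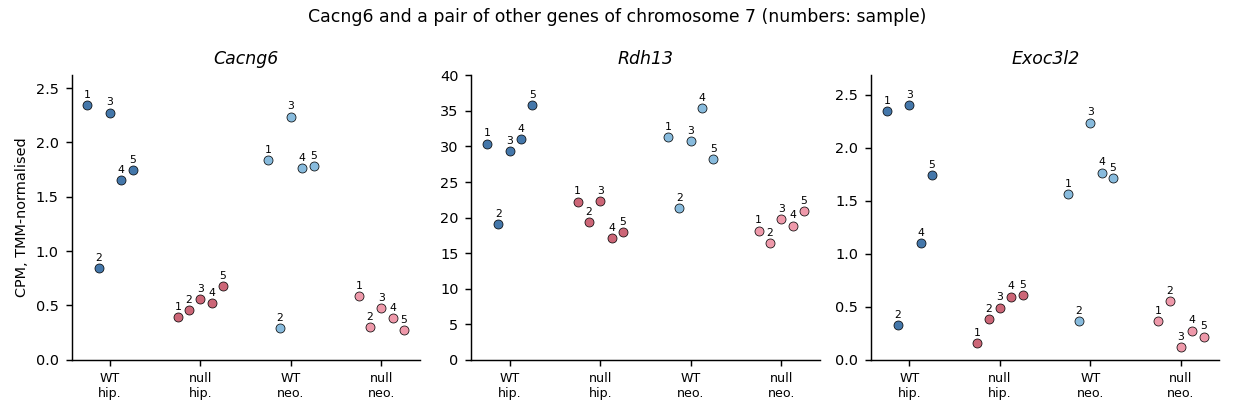
Levels of *Cacng6*, *Rdh13* and *Exoc3l2* in CPM (y axis, linear from 0) in each group, with each point numbered by its sample. WT samples 2 are the lowest WT samples in all panels, at 0.839 and 0.289 CPM for *Cacng6*. *Exoc3l2* was chosen by its likeness to *Cacng6* in these samples, and *Rdh13* after its values were seen.

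Most of the 10 genes were measured through 1 transcript. *Cacng2* and *Cnih2* had 1 quantified transcript each, and Cacng3-201, Cacng4-201, Cacng7-201 and Cnih3-201 held 95.4, 95.4, 96.2 and 92% of the TPM of their genes on average. Shisa9-201 held 82.5% and *Cacng8* was split between Cacng8-202 with 57.3% and Cacng8-201 with 38.0%. The share of the main transcript was compared by an exact two-sided permutation test of 5 against 5 samples, in the 8 genes with more than 1 transcript between tissues and in the 7 without *Cacng6* between genotypes. The smallest possible p is 0.00794, which for a single gene adjusts to 0.063 over 8 genes and 0.056 over 7, so no gene could pass alone and the absence of calls says nothing about these shares. The lowest exact p values were those of *Cacng5*, 0.048 between WT tissues (adjusted p = 0.38) and 0.016 between genotypes in the hippocampus (adjusted p = 0.11).

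The split of *Cacng5* between Cacng5-201 and Cacng5-202 was all or none in most samples. Cacng5-202 held nearly all reads in the 5 WT hippocampus samples, whereas among the 5 WT neocortex samples nearly all reads went to Cacng5-202 in samples 4 and 5, to Cacng5-201 in samples 2 and 3, and to both in sample 1. The transcripts share an identical run of 3552 bases out of 3705 and 3678, so reads that tell them apart are few. Cacng6-202 held 68.8% and Cacng6-201 31.2% of the TPM of *Cacng6* on average, and both were lower in the means of null samples than of WT samples.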

How the data were processed

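Total RNA of 20 samples was made into stranded mRNA libraries. The authors quantified the reads with kallisto against the mouse GRCm38 transcriptome (Ensembl release 92) and deposited, per transcript, estimated counts, TPM and effective lengths in bases. The submitters' processing notes name kallisto, DESeq2 and GRCh38, but the transcript identifiers are mouse ones, and 113580 of 115270 matched GENCODE vM21 of GRCm38. The 1690 others held at most 0.556% of a sample's counts and were left out.

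Estimated counts were summed per gene and rounded. edgeR 4.0.16 (R 4.3.3, limma 3.58.1) was used with TMM, its default filter, the quasi-likelihood test and Benjamini-Hochberg adjustment at 0.05. Tissue and interaction contrasts came from 1 fit of all 20 samples, and genotype contrasts from 10 samples of 1 tissue each. SEs are the log2 difference over the square root of F, and 95% intervals use the t quantile at edgeR's total degrees of freedom. Fits of both tissues took their samples as independent. Nothing says that samples of a group were handled apart from each other, so p-values measure the spread between these samples. Transcript shares were tested by exact permutation in Python 3.11.15 with scipy 1.17.1. The alternatives were DESeq2 1.42.0, DESeq2 size factors, no filter, transcript-length offsets, protein-coding transcripts alone, a replicate block, other sets of samples and each sample left out. The fits with a striatum covariate and without libraries of over 500 CPM of choroid plexus markers were added after seeing the data. On counts simulated for the hippocampus genotype contrast, edgeR recovered 87.5% of 200 genes with a true log2 change of 1 (14655 genes in all). For the WT tissue contrast it recovered 84% (15272 genes in all). The 9 genes other than *Cacng6* differed by less than this change between hippocampus genotypes, and recovery of such smaller changes was not simulated.

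Named genes were the 10 members, their main transcripts and any other with a mean share of at least 10%, the 2 genes per direction with the largest tissue difference in the list of 28, the pore subunits, the 3 genes most like *Cacng6*, and genes overlapping a member with reads. *Rdh13* was named after its values were seen. The members and lists were chosen with earlier results of these data known. No samples agreed within sampling noise (chi-square per gene 4.43 to 19.3 within groups). SDs cover sampling and differences between samples, not how kallisto splits reads between like transcripts.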

Additional observations from a re-analysis of the deposited data

Results flagged for a closer look

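In groups of 5 samples, a lowest or highest sample was singled out where its gap to the next sample was over 0.71 of the whole range, which chance alone gives for about 1 in 20 groups, and 48 groups were looked at. Among the 10 genes this held for *Cacng6* in WT neocortex, where sample 2 had 0.289 CPM and the next 1.77. It held for *Cacng8* in null hippocampus, where sample 1 had 29.8 CPM and the next 36.3, and for *Shisa9* in WT neocortex, where sample 4 had 44.8 CPM and the next 56.7. Of the marker sums, only those of choroid plexus and striatum are given for this rule. It held for choroid plexus markers, with 4496 CPM in WT hippocampus sample 3, 3866 in null hippocampus sample 5 and 798 in null neocortex sample 2, and for striatum markers, with 331 CPM in WT neocortex sample 2. Other sums also had samples that stood apart. Oligodendrocyte markers summed to 4131 CPM in null hippocampus sample 5 (next 5188) and 7337 in null neocortex sample 2 (next 5400). The value of *Cacng5* in null neocortex sample 2 was far from its group but did not reach this limit.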

How the results depend on the processing

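The tissue calls of *Cnih2*, *Cacng8*, *Cacng2* and *Cacng7* kept their direction and passed in both genotypes under every alternative and with each sample left out, as did that of *Cacng3* in WT and that of *Cacng3* in null samples apart from the fit with the striatum covariate. With that covariate the number of genes lower in null hippocampus was 2 in place of 4, and over all 15391 genes it was 638 in place of 2526. The striatum sum differs between the tissues, so this fit cannot separate it from the tissue. The tissue values of *Cacng6* (-0.27 in WT, -0.71 in null samples), *Cacng4* (0.17 in null samples) and *Shisa9* (0.11 in null samples) and the neocortex genotype value of *Cacng4* (-0.023) changed sign with the covariate. Transcript-length offsets changed the sign of *Cacng4* between WT tissues (-0.036 in edgeR, -0.035 in DESeq2), of *Cnih3* between neocortex genotypes (-0.00553 and -0.00841) and of the interaction of *Cacng3* (-0.033 in both). Without libraries of high choroid plexus sum, the null tissue value of *Cacng5* was 0.044, the hippocampus genotype value of *Cacng8* 0.0050 and the interaction of *Cacng3* -0.012, and with protein-coding transcripts alone the hippocampus genotype value of *Cacng7* was 0.00055. None of these values passed the test, and of the main values of opposite sign only that of *Cacng4* between null tissues did. The cause was not tested.

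With 1 sample left out, the number of genes passing between neocortex genotypes ran from 0 to 3. The 3 were found without null neocortex sample 5, where 306 genes were higher and 260 lower of all 15071. Leaving out 1 sample also changed the signs of these small values: *Cacng6* (-0.10 to 0.35) and *Cnih3* (-0.00090 to 0.078) between WT tissues, *Cacng7* (-0.042 to 0.042), *Cacng8* (-0.048 to 0.046) and *Cnih2* (-0.089 to 0.0099) between hippocampus genotypes, *Cnih3* (-0.0070 to 0.044) between neocortex genotypes, and the interaction of *Cacng3* (-0.044 to 0.12). Over all genes DESeq2 called 59 higher and 80 lower between hippocampus genotypes in place of 10 and 7, and 116 higher and 124 lower in the neocortex in place of 24 and 23.

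Whether equal sample numbers stand for 1 mouse is not known. Correlations of their deviations from the group means ran from -0.10 to 0.10 between WT tissues (1 of 5 over 0.1) and from 0.017 to 0.18 between null tissues (3 of 5 over 0.1), with 2 and 3 of 5 hippocampus samples closest to the neocortex sample of their own number. In the fit with the replicate block 3 genes were higher and 3 lower in WT hippocampus, and 2 higher and 4 lower in null hippocampus, as without it. Between hippocampus genotypes the block joins WT and null samples of equal number, which are different mice. There 4 of all genes were called in place of 17, which says nothing about whether equal numbers in both tissues stand for 1 mouse. The counts of 4.5 to 35.5 reads limit what can be said of *Cacng6*.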
